A study of Homo sapiens with 4 samples.

Results

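The regions described here are the clusters of the human mitochondrial genome that lie on the plus strand, the strand of the transcript read from the heavy-strand promoter, in enhanced crosslinking and immunoprecipitation (eCLIP) data for ADAR in K562 cells. They were taken as every row of the deposited lists with the mitochondrial chromosome and strand +, with no threshold on any value. This gave 223 of 534161 clusters in replicate 1, 162 of 155848 in replicate 2, and 14 of 1717 peaks in the list that combines the replicates, called the reproducible list below. K562 is an established cell line from a human chronic myeloid leukaemia. There were 2 groups from cells of this line, with no treatment labelled: ADAR IP, 2 libraries from RNA pulled down with an ADAR1 antibody, and input, 2 libraries without a pull-down. Ultraviolet light (254 nm, 400 mJ/cm2) was used to crosslink the cells, and the RNA came from the part of the gel up to 75 kDa above ADAR. The labels do not say whether replicates 1 and 2 were separate cultures, and their differences can be technical. The only comparison behind each value is ADAR IP over the input of the same number. A pull-down without the ADAR1 antibody was not analysed here, so capture that does not depend on ADAR was not measured.

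Mitochondrial DNA is transcribed from both strands into long precursors. The heavy-strand transcript carries both rRNAs, most tRNAs and the messages of all but 1 of the protein-coding genes. In it the tRNAs sit between the rRNAs and the messages, and are cut out at their 5′ ends by mitochondrial RNase P and at their 3′ ends by ELAC2, which frees the RNAs on either side. ADAR1 edits adenosines of double-stranded RNA into inosines and is known as a nuclear and cytoplasmic enzyme. Such double-stranded RNA can form where the heavy-strand and light-strand transcripts pair. The eCLIP assay maps RNA that ultraviolet light has joined to the pulled-down protein.

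Each cluster carries the authors' log2 fold, which sets its share of ADAR IP reads against its share of input reads, and the authors' −log10 p for that excess. These are the clusters' own deposited values. Enriched here means that both the log2 fold and the −log10 p reached 3. The folds of all 223 and 162 clusters fell on ratios of whole reads, and so the reads behind them could be recovered. Library totals that fitted the deposited p-values were about 19974000 ADAR IP reads against 6003000 input reads in replicate 1. In replicate 2 they were about 3929000 ADAR IP reads against 7103000 input reads. For the 117 and 56 clusters with a −log10 p between 0 and the limit of 400, that value fixed the read numbers. The exception was ATP6 positions 8678 to 8690 in replicate 1, with a fold near 0, where fewer reads can also fit. It was matched with 9840 ADAR IP reads, against 866 and 909 in the touching clusters, so its interval may be too narrow. For clusters at 0 or at the limit the reads given are the smallest that fit, marked "at least". Intervals on a fold are exact 95% binomial intervals and cover counting error only. With "at least" reads an interval is the widest that fits.

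By the median over clusters, the tRNA spans as a class stood highest in both replicates, the messages next and the rRNAs lowest. In replicate 2 the medians of COX1 (3.47) and ND1 (3.42) were above those of all tRNA spans with clusters except TRNF (4.33). Within the rRNA class, RNR1 had medians of 1.69 and 2.27 in replicates 1 and 2, above those of the messages as a class. RNR2 had −1.19 and −0.84. Heavy-strand tRNA spans held 11 clusters in replicate 1 with log2 folds of 2.16 to 6.94 (median 4.01) and 13 in replicate 2 with 1.71 to 4.58 (median 2.63). Messenger RNA spans held 123 clusters in replicate 1 with −1.27 to 3.37 (median 1.07) and 76 in replicate 2 with −0.11 to 4.09 (median 1.63). The rRNA spans held 89 clusters in replicate 1 with −2.83 to 2.27 (median 0.08) and 73 in replicate 2 with −3.38 to 2.75 (median −0.34). With each cluster weighted by its width, the rRNA mean was 0.14 in replicate 1 and 0.27 in replicate 2. The sign of the class value in replicate 2 thus differs between the median and this mean. Medians over all clusters of the series were 0.07 in replicate 1 and 1.85 in replicate 2, so the replicates differ in level over the whole series as well. No plus-strand cluster had its midpoint outside a gene span or opposite any of the 9 light-strand genes, and none overlapped a minus-strand cluster.

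Enriched clusters numbered 12 of 223 in replicate 1 (5.38%) against 1.39% of all clusters in that replicate, and 21 of 162 in replicate 2 (13.0%) against 12.8%. The replicate 2 share is at the background. In replicate 1, 9 of the 12 lay in tRNA spans and 3 in messages. In replicate 2, 6 of the 21 lay in tRNA spans and 15 in messages. No rRNA cluster was enriched in either replicate. Mitochondrial clusters were read far more deeply than most. The median cluster of this strand had at least 184 input reads in replicate 1 and 446.5 in replicate 2. Over all clusters the ratio's median denominator in lowest terms was 1 and 2. That is an unlike measure, since a denominator in lowest terms can be below the input reads. Depth was then held to a denominator of at least 50 input reads in lowest terms, a minimum chosen after seeing the data. In replicate 1 this left 2 of 160 plus-strand mitochondrial clusters enriched (1.25%), against 0.809% of all 1730 such clusters. In replicate 2 it left 13 of 136 (9.56%), against 1.69% of all 1299. Both backgrounds contain the mitochondrial clusters themselves. The 14 enriched clusters behind the replicate 1 background include these 2 and 6 from the mitochondrial minus strand. The 22 behind the replicate 2 background include these 13 and 8 from that strand. Only 6 and 10 minus-strand clusters reached this depth, so the enriched share there was higher than on the plus strand. Neighbouring clusters touch and share reads, so no test over clusters was made. The 223 and 162 clusters form 88 and 63 runs of touching clusters.

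**Figure D1:**
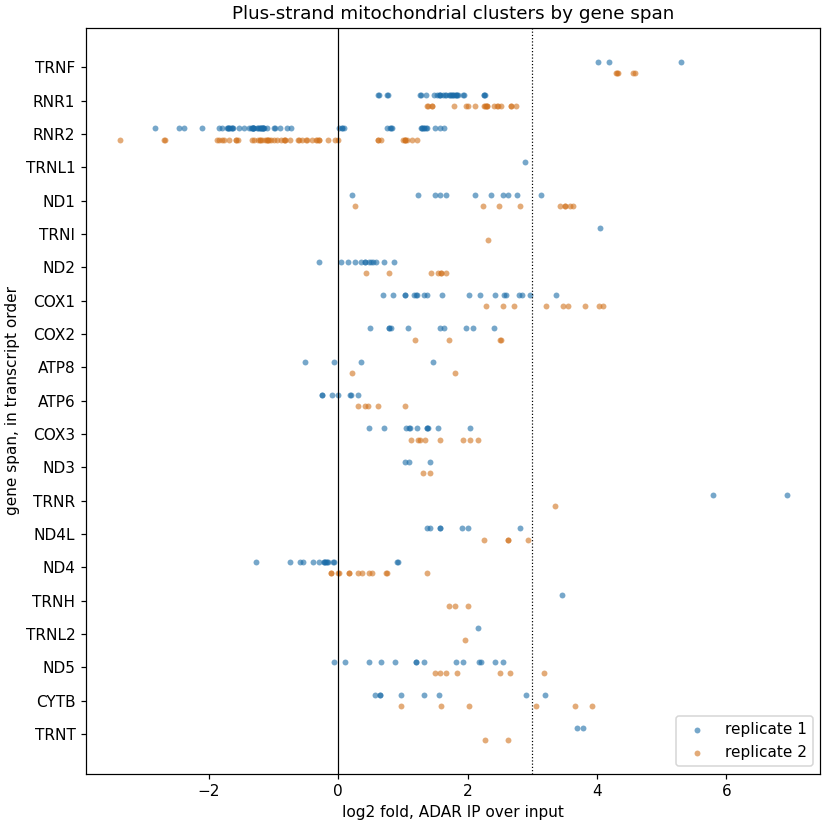
Log2 fold of ADAR IP over input (horizontal axis) for every plus-strand mitochondrial cluster, by gene span from the start to the end of the heavy-strand transcript, with replicate 1 in blue and replicate 2 in orange. The solid line marks 0 and the dotted line the fold minimum of 3. TRNF lies above 4 in both replicates, RNR1 lies above 0, and most RNR2 clusters lie below 0.

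Among the 14 heavy-strand tRNA spans, 7 held a cluster in replicate 1 and 6 of these in replicate 2. The other spans, for which the lists give no plus-strand cluster with its midpoint inside, were TRNV, TRNM, TRNW, TRND, TRNK, TRNG and TRNS2. Spans are those of RefSeq on GRCh38.p14. TRNF, the phenylalanine tRNA at positions 577 to 647, is the first gene of the transcript, directly before the 12S rRNA. Its 3 clusters in replicate 1 had log2 folds of 4.19, 4.01 and 5.29, and its 5 clusters in replicate 2 had 4.29, 4.31, 4.33, 4.58 and 4.55. All 8 were enriched, and the ranges of the replicates overlapped. The highest cluster of replicate 1 ran from base 39 of the tRNA to its last base, 71, and rested on at least 6918 ADAR IP reads against at least 53 input reads (interval 4.90 to 5.71). The highest of replicate 2 covered bases 37 to 41, with at least 1469 ADAR IP reads against at least 111 input reads (interval 4.30 to 4.87). Among the tRNA and message spans with clusters in both replicates, TRNF and TRNR were the only ones in which every cluster was enriched in both.

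TRNR, the arginine tRNA at positions 10405 to 10469, had the highest folds of the strand in replicate 1 but not in replicate 2. In replicate 1 its 2 clusters stood at 6.94 for bases 10 to 20 and 5.79 for bases 21 to 65, the last base of the tRNA. The first rested on 408 ADAR IP reads against 1 input read (interval 4.45 to 12.2) and the second on 551 ADAR IP reads against 3 input reads (interval 4.23 to 8.07). Input was thus nearly absent, and the size of these folds is poorly fixed, although both lower bounds lie above 4. In replicate 2 the tRNA had a single cluster over its end, positions 10460 to 10470, at 3.35, with at least 379 ADAR IP reads against at least 67 input reads (interval 2.98 to 3.75). All 5 TRNF clusters were higher there. The intervals of the overlapping clusters of the replicates do not meet.

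TRNI, TRNH and TRNT, the isoleucine, histidine and threonine tRNAs, were enriched in replicate 1 and not in replicate 2. TRNI had 1 cluster in each replicate with the same ends, positions 4291 to 4328. It stood at 4.05 with 1269 ADAR IP reads against 23 input reads in replicate 1 (interval 3.46 to 4.71), and at 2.32 with 91 ADAR IP reads against 33 input reads in replicate 2 (interval 1.73 to 2.94). TRNH, at positions 12138 to 12206, had 3.45 over positions 12148 to 12207 in replicate 1, with at least 4191 ADAR IP reads against at least 115 input reads. In replicate 2 it was split into 3 clusters at 2.01, 1.80 and 1.71, the last with at least 1481 ADAR IP reads against at least 816 input reads. TRNT, at positions 15888 to 15953 and the last heavy-strand gene with clusters, had 3.69 and 3.78 in replicate 1, and 2.63 and 2.26 in replicate 2. For all 3 of these tRNAs the intervals of the paired clusters stayed apart, with replicate 1 the higher. The TRNT cluster of replicate 2 at 2.63 was not paired, and its interval (1.96 to 3.35) met those of both replicate 1 clusters.

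The leucine tRNAs had no enriched cluster. TRNL2, at positions 12266 to 12336, had 1 cluster with the same ends in both replicates, 12275 to 12335, at 2.16 (interval 1.96 to 2.37) in replicate 1 and 1.96 (interval 1.76 to 2.16) in replicate 2. These intervals overlap. TRNL1, at positions 3230 to 3304, had 1 cluster at 2.89 in replicate 1, with 767 ADAR IP reads against 31 input reads, and none in replicate 2. Its counting interval (2.38 to 3.46) holds the fold minimum.

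The clusters ended near the 3′ ends of the tRNAs but did not begin at their 5′ ends. The first cluster began at base 10 or 11 in TRNF, TRNR, TRNH, TRNL2 and TRNT in replicate 1, at base 19 in TRNL1 and at base 29 in TRNI. In replicate 2 it began at base 10 in TRNF, TRNH and TRNL2, at 25 in TRNT, at 29 in TRNI and at 56 in TRNR. The last base of the 3′-most cluster in replicate 1 equalled the last base of the span in TRNF and TRNR. It lay 1 base past the end in TRNH and 2 bases past it in TRNT, and stopped short by 1 base in TRNL2, 3 bases in TRNI and 4 bases in TRNL1. In replicate 2 the 3′-most cluster passed the end by 1 base in TRNR and TRNT and by 2 bases in TRNH, and stopped short by 1 base in TRNL2, 3 bases in TRNI and 4 bases in TRNF.

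**Figure D2:**
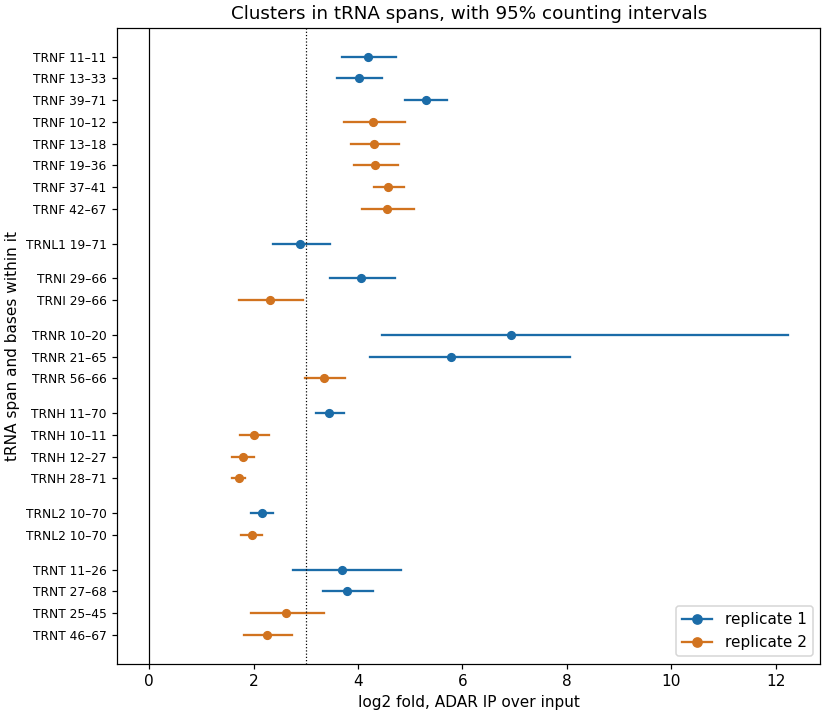
Log2 fold of ADAR IP over input (horizontal axis) for every cluster in a heavy-strand tRNA span, labelled with the bases of the tRNA it covers. Points are the authors' folds, bars are exact 95% counting intervals, blue is replicate 1 and orange is replicate 2, and the dotted line marks 3. Bars of paired clusters overlap in TRNF and TRNL2 and stand apart in TRNI, TRNR, TRNH and TRNT, where replicate 1 is higher. In TRNT an unpaired bar of replicate 2 meets both bars of replicate 1.

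The 2 rRNAs behaved differently along their lengths. RNR1, the 12S rRNA of the small mitochondrial ribosomal subunit at positions 648 to 1601, lay above 0 in all 30 clusters of replicate 1 (0.61 to 2.27, median 1.69) and all 20 of replicate 2 (1.37 to 2.75, median 2.27). Every counting interval there was above 0 as well. RNR2, the 16S rRNA of the large subunit at positions 1671 to 3229, lay below 0 in 41 of 59 clusters of replicate 1 (−2.83 to 1.63, median −1.19) and 43 of 53 of replicate 2 (−3.38 to 1.21, median −0.84). Intervals were wholly below 0 in 41 clusters of each replicate. The authors' −log10 p is 0 for every cluster below 0 in both replicate lists, so these values do not test depletion.

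Within RNR1 the fold differed sharply across 1 boundary, placed at the same base in both replicates. The cluster ending at base 270 of the gene stood at 1.82 in replicate 1 and 2.66 in replicate 2. The touching cluster, from base 271, stood at 0.76 and 1.39. In replicate 1 the first held at least 2945 ADAR IP reads against at least 250 input reads, and the second at least 13552 ADAR IP reads against at least 2413 input reads. In replicate 2 they held at least 2142 ADAR IP reads against at least 611 input reads, and at least 3037 ADAR IP reads against at least 2102 input reads. The low stretch ended at base 337 in both replicates. The highest RNR1 cluster was at bases 885 to 894 in replicate 1, at 2.27, and at bases 219 to 233 in replicate 2, at 2.75.

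RNR2 had medians below 0 over the first 2 of 4 equal parts and above 0 over the others. Over the first part the median was −1.82 in replicate 1 and −0.87 in replicate 2, and over the second it was −1.24 and −1.10. Over the third part it was 0.81 and 0.61, and over the last part 1.32 and 1.04. The lowest cluster was the same 3 bases in both replicates, bases 214 to 216 of the gene, at −2.83 with at least 3883 ADAR IP reads against at least 8309 input reads in replicate 1. In replicate 2 it stood at −3.38 with at least 2025 ADAR IP reads against at least 38162 input reads. The highest were bases 1481 to 1489 at 1.63 in replicate 1, and bases 1482 to 1495 at 1.21 in replicate 2. Those 2 clusters overlap. The rRNA clusters were short, with a median width of 8 bases in replicate 1 and 11 in replicate 2, against 31 and 41.5 in messages.

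**Figure D3:**
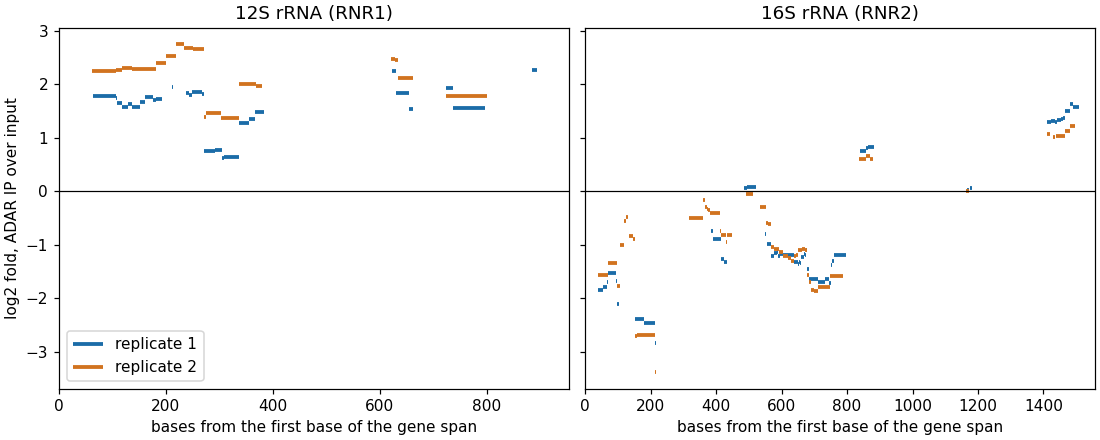
Log2 fold of ADAR IP over input (vertical axis) against the distance in bases from the first base of each rRNA gene. Each bar is 1 cluster, blue for replicate 1 and orange for replicate 2. All RNR1 clusters lie above 0, and RNR2 lies below 0 in its first 2 of 4 equal parts, apart from 2 clusters of replicate 1, and reaches 1.63 and 1.21 near its end.

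All 12 protein-coding genes of the heavy strand held clusters in both replicates. COX1, the catalytic subunit of cytochrome c oxidase at positions 5904 to 7445, had the highest folds among them. In replicate 1 its 19 clusters ran from 0.68 to 3.37 (median 1.60), and 1 was enriched, positions 6658 to 6676, with 1343 ADAR IP reads against 39 input reads. In replicate 2 its 9 clusters ran from 2.28 to 4.09 (median 3.47), and 6 were enriched. The highest of these, positions 6626 to 6676 at 4.09, overlaps the highest of replicate 1 and held at least 931 ADAR IP reads against at least 99 input reads. A second high place lay near the start of the gene, at 4.03 over positions 6007 to 6045 in replicate 2, where the overlapping cluster of replicate 1 stood at 2.19. Between the 2 places the fold dipped in both replicates, to 0.68 at bases 636 to 653 of the gene in replicate 1 and to 2.28 at bases 634 to 693 in replicate 2.

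ND1, a complex I subunit at positions 3307 to 4262, had 1 of 11 clusters enriched in replicate 1 and 5 of 9 in replicate 2. Its highest folds were 3.14 at bases 32 to 73 of the gene in replicate 1, with 792 ADAR IP reads against 27 input reads, and 3.62 at bases 80 to 133 in replicate 2, with at least 477 ADAR IP reads against at least 70 input reads. Its last cluster, in the last of 3 equal parts, stood at 0.21 in replicate 1, with 820 ADAR IP reads against 213 input reads, and at 0.26 in replicate 2, with 244 ADAR IP reads against 369 input reads. CYTB, the cytochrome b subunit of complex III at positions 14747 to 15887, had 1 of 8 enriched in replicate 1, at 3.20 with 275 ADAR IP reads against 9 input reads. In replicate 2 it had 3 of 6 enriched, up to 3.92 with 142 ADAR IP reads against 17 input reads. The enriched clusters of the replicates do not overlap each other in CYTB. ND5, another complex I subunit at positions 12337 to 14148, had its highest cluster at 2.54 in replicate 1 and 3.18 in replicate 2. Both cover bases in the first 356 of the gene, and the one of replicate 2 was the only enriched cluster of ND5.

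Each of the 12 genes was divided into 3 equal parts, and the last part with clusters was set against the first by its median log2 fold, with no test. It was lower in 9 genes and higher in 3 in replicate 1, and lower in 10 and higher in 2 in replicate 2. COX2 and ATP8 were higher in both replicates and COX3 in replicate 1. In CYTB the medians were 2.90, 0.95 and 0.65 in replicate 1, and 3.67, 1.50 and 1.60 in replicate 2. In ND5 they were 2.05, 0.66 and 0.11 in replicate 1, and 2.50 and 1.71 over the first 2 parts in replicate 2, where the last held no cluster. In COX1 they were 2.43, 1.33 and 1.03 in replicate 1, and 3.47 and 3.13 over the first 2 parts in replicate 2. COX2, the copper-binding subunit of cytochrome c oxidase, had 0.63, 1.07 and 2.08 in replicate 1 and 1.19, 2.10 and 2.52 in replicate 2. ATP8, an ATP synthase subunit with clusters only in its last 2 parts, had −0.07 and 1.47 in replicate 1 and 0.20 and 1.80 in replicate 2. The order was not steady in all genes, as ND4 had 0.30, 0.76 and 0.01 in replicate 2. Many parts hold few clusters, and those with 1 rest on a single value.

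The other protein-coding genes had no enriched cluster. ND4L, which lies directly after TRNR, ran from 1.37 to 2.80 in replicate 1 and from 2.26 to 2.93 in replicate 2, highest in its first cluster in both. ND4, which overlaps the end of ND4L on the same message, had the lowest median of the 12 genes. It ran from −1.27 to 0.93 in replicate 1, with 14 of 16 clusters below 0, and from −0.11 to 1.38 in replicate 2, with 3 of 13 below 0. The lowest message cluster in replicate 1 was in ND4 at positions 11990 to 12050, with at least 1715 ADAR IP reads against at least 1244 input reads. ATP6, an ATP synthase subunit, was also near 0, from −0.25 to 0.30 in replicate 1 and from 0.31 to 1.03 in replicate 2. ATP8, which shares its message with ATP6, ran from −0.51 to 1.47 in replicate 1 and had 0.20 and 1.80 in replicate 2. COX3, the remaining mitochondrial cytochrome c oxidase subunit, ran from 0.48 to 2.03 in replicate 1 and from 1.12 to 2.17 in replicate 2. ND2, a complex I subunit, had a median of 0.42 in replicate 1 and 1.55 in replicate 2. ND3, another, had 1.09 and 1.36.

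**Figure D4:**
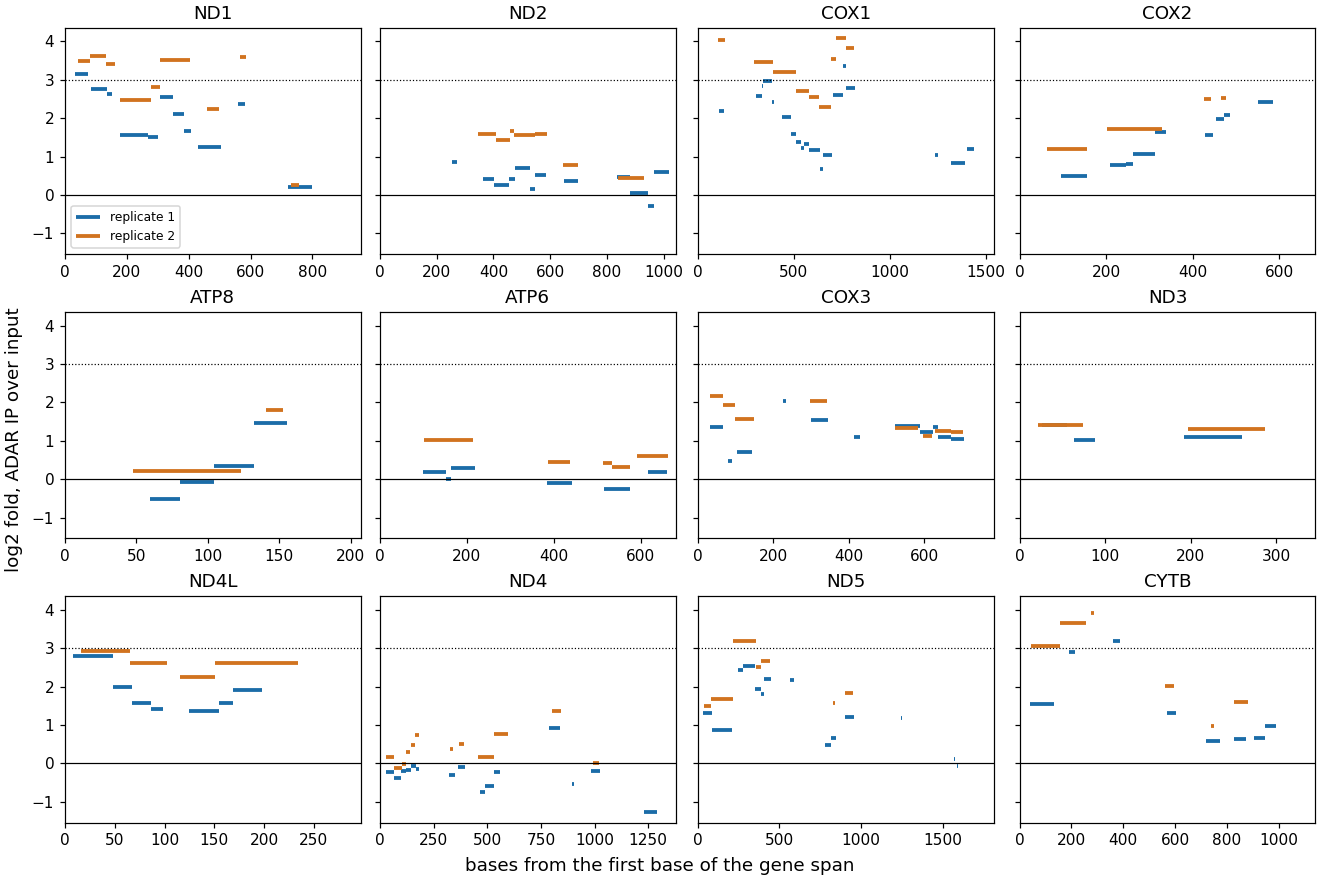
Log2 fold of ADAR IP over input (vertical axis) against the distance in bases from the first base of each of the 12 heavy-strand protein-coding genes. Each bar is 1 cluster, blue for replicate 1 and orange for replicate 2, and the dotted line marks 3. ND5 and CYTB are higher near their starts, COX2 is higher near its end, and ND4 and ATP6 lie near 0.

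The position of a high or low fold was largely shared between the replicates, while its size often differed. Clusters were paired by mutual best overlap, which gave 134 pairs. Over the pairs, Pearson's r between the log2 folds was 0.92 and Spearman's rho was 0.93. The points share libraries and neighbouring clusters share reads, so these are descriptions. The correlation was r = 0.97 over the 53 rRNA pairs, r = 0.93 over the 73 message pairs and r = 0.61 over the 8 tRNA pairs. In messages replicate 2 was higher in 70 of 73 pairs, with a median difference (replicate 2 minus replicate 1) of 0.70, and the exceptions lay in COX3 and ND3. Intervals did not meet in 44 of these pairs, all with replicate 2 the higher. In tRNA spans the order was turned round, with replicate 2 higher in 2 of 8 pairs, both in TRNF, and a median difference of −1.13. In RNR1 the median difference was 0.67 over 17 pairs, and in RNR2 it was −0.04 over 36 pairs. The differences by class were not tested, since each replicate gives 1 fold per cluster. Reading depth differed as well, as ADAR IP held 3.33 times the reads of input in replicate 1 and 0.553 times in replicate 2, and its part in these differences was not tested.

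**Figure D5:**
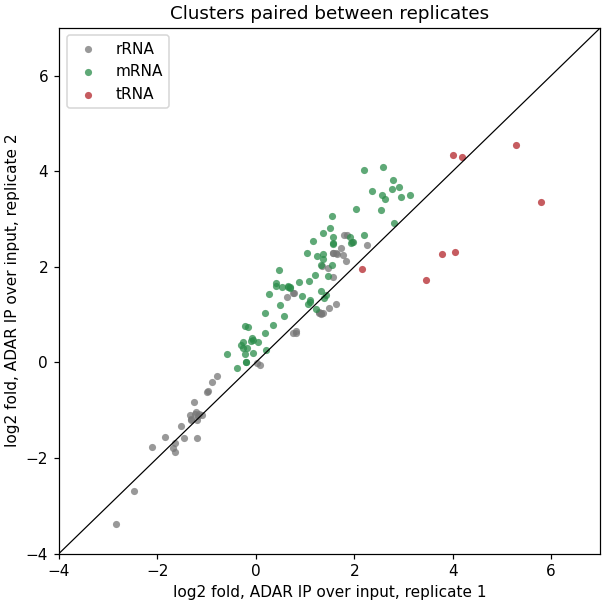
Log2 fold of ADAR IP over input in replicate 2 (vertical axis) against replicate 1 (horizontal axis) for 134 paired plus-strand clusters, coloured by class, with the line of equal values. Message pairs lie above the line in 70 of 73 cases, and 6 of 8 tRNA pairs lie below it.

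Of the enriched clusters, 6 of 12 in replicate 1 (50%) were overlapped by an enriched cluster of replicate 2, and 8 of 21 in replicate 2 (38.1%) by one of replicate 1. Over all enriched clusters of the series, the same shares were 41.9% of 7408 in replicate 1 and 14% of 19992 in replicate 2, and the differences were not tested. The places shared in this sense were TRNF, TRNR and single places in ND1 and COX1. Counting any cluster of the other replicate, 10 of the 12 and 20 of the 21 were overlapped.

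The 14 reproducible peaks lay in TRNF (5), COX1 (4), ND1 (2), TRNI, TRNR and CYTB (1 each), and touching peaks merged into 9 sites. All 1717 peaks of that list pass the fold and −log10 p minimums, so enrichment there is no result. The folds of the 14 ran from 3.11 to 5.65 with a median of 3.51, against a median of 4.62 over the whole list, and 11 of the 14 were under that median. Their −log10 p values were high, with 6 of the 14 at the limit of 400, against 19 of all 1717. An enriched cluster overlapped 8 of the 14 in both replicates, 5 in replicate 2 alone and 1, TRNI, in replicate 1 alone. The TRNI peak, whose interval is identical in both replicates, had a fold of 3.18, the mean of 4.05 and 2.32, and the p of replicate 2. The TRNR peak, positions 10425 to 10469, stood at 5.65, and no replicate 2 cluster in the lists has this interval. Its −log10 p of 57.2 is the one of the identical replicate 1 cluster, which rested on 3 input reads. The COX1 peaks stood at 3.11, 3.12, 3.70 and 3.30 from the start of the gene on, the ND1 peaks at 3.33 and 3.23, and the CYTB peak at 3.14.

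Minus-strand mitochondrial clusters, which follow the light-strand transcript, were fewer and nearly all enriched, with 13 of 13 in replicate 1 and 10 of 12 in replicate 2. Their medians were 3.68 and 3.88. The lowest of them was at 3.33 in replicate 1 and 0.64 in replicate 2.

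Nuclear copies of mitochondrial sequence could share reads with the clusters above. The placement of reads that match several loci was not given in the sources used here. Of 20 such genes on a list written from general knowledge, 14 held clusters in replicate 1 and 12 in replicate 2, with 40 and 23 clusters in all. Enriched were 3 of the 40 (7.5%, against 1.39% of all clusters) and 6 of the 23 (26.1%, against 12.8%). Some copies had folds near those of the mitochondrial gene and others did not. The highest cluster of MTCO1P12, a copy of COX1, stood at 3.91 in replicate 1 and 4.76 in replicate 2, against 3.37 and 4.09 in COX1. That of MTND2P28, a copy of ND2, stood at 3.34 and 6.47, against 0.87 and 1.67 in ND2. That of MTATP6P1, a copy of ATP6, stood at 2.71 and 4.57, against 0.30 and 1.03 in ATP6. Among copies of RNR2 sequence, the lowest cluster of MTRNR2L8 stood at −2.67 and −3.53, against −2.83 and −3.38 in RNR2. The clusters of MTRNR2L1, MTRNR2L2 and MTRNR2L6 were all above 0, where most RNR2 clusters were below 0. A reproducible peak lay in MTND2P28 at 4.90 and in MTATP6P1 at 3.64, both on the minus strand. Clusters of both strands were counted in all copies. On the plus strand lay 6 of 8 and 2 of 3 clusters of MTCO1P12. MTND2P28 had 1 of 2 and 1 of 3 there, and MTATP6P1 had 1 of 2 in each replicate. The highest clusters of these copies were thus not matched by strand to the folds of COX1, ND2 and ATP6. The copies compared were chosen after their values were seen. Reads behind the folds of the copies were not recovered. Those folds thus have no intervals and can rest on few input reads. How far such copies share reads with the mitochondrial clusters was not tested. Of 28 nuclear genes for mitochondrial transcription and RNA processing, 27 had a gene span under the listed symbol. Their enriched clusters were 9 of 907 in replicate 1 (0.992%, against 1.39% of all clusters) and 51 of 323 in replicate 2 (15.8%, against 12.8%), close to the background. These lay in 5 genes in replicate 1 and 13 in replicate 2, and none of the 27 genes held a reproducible peak. LRPPRC, which stabilises mitochondrial messages, had 3 of 158 clusters enriched in replicate 1 and 6 of 55 in replicate 2. ELAC2, which cuts the 3′ ends of mitochondrial tRNAs, had none of 28 and none of 4.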

How the data were processed

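The data were eCLIP libraries of K562 cells, 2 ADAR IP and 2 input, grouped by their titles. The tools cutadapt 1.9 and STAR 2.4.0i are listed, per the submitters' processing notes. A peak caller was not given in the sources used here. Deposited lists hold the authors' log2 fold of IP over input and the authors' −log10 p per cluster, with no value per sample. Clusters on chromosome 17 reached 83224967, past the end of that chromosome in the build before GRCh38, so RefSeq spans of GRCh38.p14 were used. Start positions were written from 1. A cluster belongs to the span at its midpoint, or to the shorter of overlapping spans. Which genes lie on the light strand was taken from general knowledge.

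Reads were recovered from the log2 folds of the deposited lists, each being the log2 ratio of 2 whole numbers and a constant. The constant was set so that the most frequent fold stands for 3 IP reads and 1 input read, allowing denominators of at most 60000 and differences of at most 1e-12. On a scale shifted by 0.0137, 5 of 223 and 0 of 162 clusters fell on such ratios. Library totals were fitted so that a chi-square test with Yates correction gave the authors' −log10 p. It did so within 0.005 for 100% of 304 clusters in replicate 1 and 732 in replicate 2 with at least 5 input reads in lowest terms and a −log10 p over 20. The highest −log10 p so matched was 87.6 and 88.2, so a −log10 p at the limit of 400 was read as lying past it.

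Counts, medians and ranges were computed with Python 3.11.15, pandas 2.3.3 and SciPy 1.17.1, and no test of significance over clusters was made. Overlap needed at least 1 base on the same strand. Named were all spans with an enriched cluster or a reproducible peak, both rRNAs and the extremes of each class; other spans that are named were added after their values were seen. The members, lists and thresholds were chosen with earlier results of these data known. Alternatives were other fold and −log10 p minimums, merged clusters, a stricter overlap, assignment to every span overlapped, weighting by width, and each replicate alone.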

Additional observations from a re-analysis of the deposited data

How the results depend on the processing

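Counts moved with the fold minimum. At log2 fold 2, enriched clusters numbered 40 in replicate 1 and 56 in replicate 2, and those overlapped by the other replicate 32 and 29. At log2 fold 4 there were 6 and 7, and 6 of the reproducible peaks. Merging touching enriched clusters left 11 places in replicate 2 and 9 reproducible sites. A denominator of at least 50 input reads, chosen after seeing the data, left 2 and 13. The enriched clusters of the other replicate alone overlapped 13 of the 14 reproducible peaks without replicate 1 and 9 without replicate 2. The rRNA value of replicate 2 was 0.27 as a mean weighted by width and −0.34 as a median. Both the statistic and the weighting differ there, and their parts were not separated. A −log10 p minimum of 5 changed no count, and assignment to every span overlapped changed counts of clusters by at most 1. The replicate correlation was 0.93 with a stricter overlap and 0.85 outside the rRNAs. No paired analysis was possible because no test was made: each fold is already IP over the input of the same number, and of the 134 pairs of clusters 9 have the same ends in both replicates and 1, in TRNI, has exact reads in both. Folds with few input reads, as in TRNR in replicate 1, are limited by depth.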
